A study of Mus musculus with 2 samples.

Results

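The cytosolic ribosomal protein genes were taken as every gene whose symbol is Rpl or Rps followed by a number, with at most a letter and a digit after it, together with Rplp0, Rplp1, Rplp2 and Rpsa. The rule found 83 of the 32285 genes listed for both libraries, 51 of the large ribosomal subunit by symbol and 32 of the small. It also takes in a few paralogues, such as Rpl7l1, Rps27l and Rpl39l, and leaves out Rpl36al, whose symbol ends in 2 letters. The measurements are single-cell RNA counts of Lineage- c-Kit+ cells, the stem and progenitor gate, from C57BL/6 mouse fetal liver at E14.5. One library came from CD45.2(+) Vav1-iCre Brd9fl/fl embryos, here called the knockout, and the other from CD45.2(+) Brd9fl/fl embryos, the control, titled WT. Both groups carried the floxed Brd9 alleles, and embryos came from floxed males mated to floxed females with the recombinase. Vav1-iCre is a recombinase driven in blood cells by Vav1 elements, and no library held the recombinase without the floxed gene, so effects of Cre and of Brd9 loss cannot be told apart. BRD9 is the bromodomain protein that defines non-canonical BAF, a complex that moves nucleosomes. The comparison asks how losing it affects fetal blood formation, and there was 1 library per genotype, so no test over samples was possible. All intervals are 95% and cover counting error only.

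Each ribosome carries about equal numbers of nearly every ribosomal protein, and cells make these proteins from mRNAs that are among the most abundant they hold. Most of these mRNAs begin with a run of pyrimidines, the terminal oligopyrimidine tract, through which mTOR signalling controls their translation. Red cell formation is known to be sensitive to ribosome supply, since inherited loss of 1 copy of RPS19 and several other ribosomal protein genes causes Diamond-Blackfan anaemia.

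RefSeq start sites (GRCm38.p6) were found for 63 of the 83 members, with 75 starts in all. In the window from 50 bases before to 50 bases after the start, the longest run of C and T on the sense strand had a median of 10 bases at the members' starts and 7 at all 32851 starts. A run of at least 8 bases was present at 58 member starts (77.3%) and at 35.7% of all starts. The letters CTCTTTC on the sense strand of that window, which such a run may contain, were present at 18.7% of member starts and 1.37% of all. CCGGAAG, a form of the site bound by ETS factors, was searched on both strands from 250 bases before to 50 after the start. It was present at 36% of member starts and 8.86% of all. These are matches of letters, not measured sites. The 30 bases around the longest run, in capitals, are shown for the 4 members lowest in the knockout relative to the control (Rps23, Rps19, Rpl35 and Rpl12), for Rplp0 and Rpl7a, lower in several non-erythroid groups than in erythroid cells, for Rpl28 and Rpl39, higher in them, and for Rpl7l1, whose level differed most between cell groups.
Rps23, chr13:90923142-90923171, + strand: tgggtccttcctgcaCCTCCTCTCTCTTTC
Rps19, chr7:24884622-24884651, + strand: accccgtcgTTCCCTTTCCCCTggctggca
Rpl35, chr2:39005115-39005144, - strand: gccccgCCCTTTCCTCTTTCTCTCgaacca
Rpl12, chr2:32961732-32961761, + strand: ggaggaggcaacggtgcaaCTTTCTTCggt
Rplp0, chr5:115559466-115559495, + strand: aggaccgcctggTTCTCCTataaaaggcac
Rpl7a, chr2:26910788-26910817, + strand: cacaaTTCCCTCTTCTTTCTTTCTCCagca
Rpl28, chr7:4792952-4792981, + strand: gcctctcgtgTCTCTCTTTCCgtctccggc
Rpl39, chrX:37085173-37085202, - strand: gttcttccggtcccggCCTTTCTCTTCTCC
Rpl7l1, chr17:46782671-46782700, - strand: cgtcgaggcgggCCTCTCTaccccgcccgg
The run was 15 bases at Rps23 (cut at the edge of the window), 13 at Rps19, 18 at Rpl35, 8 at Rpl12, 7 at Rplp0, 21 at Rpl7a, 11 at Rpl28, 14 at Rpl39 (also at the edge) and 7 at Rpl7l1. Relative to the annotated start, these runs began at 35, -45, -7, 39, 11, -14, -3, 36 and -32 bases in the same order. Only those at Rpl35, Rpl7a and Rpl28 spanned the start, so the capitals do not mark terminal oligopyrimidine tracts as such. Rps19 had 3 starts, and the one with the longest run is shown. Long and short runs thus occurred both among the 4 members lowest in the knockout and among the others shown. Of those others, Rplp0 and Rpl7a were also lower in the knockout, by less (log2 ratios -0.011 and -0.045), and Rpl28, Rpl39 and Rpl7l1 were higher.

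In the files, 7289 barcodes with 271350214 UMIs, each a tagged mRNA molecule, belonged to the knockout, and 7399 barcodes with 292972312 UMIs to the control. Of these, 6747 and 6851 were kept as cells, at a median depth of 36010 and 38503 UMIs. The level of Brd9 was 7.04 CPM (counts per 1000000 UMIs) in knockout and 27.2 CPM in control cells, a log2 ratio of -1.95 [-2.03 to -1.88]. Which exons the deletion removes was not stated, so what the remaining UMIs show of the deletion was not tested. The libraries shared 16 barcodes, and 59.0% of knockout against 23.0% of control cells were called female from their Xist and Y-linked UMIs. The number of embryos per library is not given, so sex and embryo cannot be told apart. Cells were clustered without the ribosomal protein genes, and clusters were named from markers, so a name stands for cells like the named type. Erythroid clusters 0 (461 knockout and 36 control cells) and 3 (492 and 80) came mostly from the knockout, and 13 (118 and 818) and 17 (31 and 384) mostly from the control, so the erythroid group is made of different clusters in the libraries. Cells resembling hepatocytes, endothelium, macrophages or stroma had been removed, 10 from the knockout and 9 from the control.

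Ribosomal protein mRNAs were a similar part of all UMIs in both libraries. Their share was 25.8% in the knockout and 26.0% in the control, and the log2 ratio of the 2 was -0.010 [-0.011 to -0.0099]. Over single cells the share had a median of 26.1% in the knockout, with 90% of cells between 21.8% and 29.8%, and a median of 26.3% in the control, between 21.9% and 30.2%. The distributions of the libraries therefore overlapped almost wholly. Under 15% of UMIs were ribosomal protein in 20 knockout and 28 control cells. Those cells held few UMIs (median 8139 and 12078) and a high mitochondrial share (median 6.07% and 6.54%, against 2.39% and 2.82% in all cells). The share also went down with depth, over 4 bins of cells by total UMIs, from 26.5% and 27.2% in the bin with fewest to 25.2% and 25.4% in the bin with most; the part of depth in the differences below was not tested.

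The 3′ chemistry counts each molecule once at its end, so a level in CPM needs no scaling by gene length. Of the 83 members, 80 reached 20 CPM in at least 1 library. Their mean level ran from 183 to 6730 CPM with a median of 3153 CPM, and 78 of the 80 lay above 1000 CPM. Rplp1, of the stalk that recruits elongation factors, had 6652 CPM in the knockout and 6808 in the control. Rpl13 (6195 and 6274 CPM), Rps12 (6111 and 6052), Rplp0 (5899 and 5945) and Rps2 (5347 and 5531) were also among the highest. At the low end, Rpl7l1, a paralogue of Rpl7, stood at 188 and 178 CPM, Rps27l at 900 and 893, Rpl35 at 1026 and 1116, Rpl22l1 at 1214 and 1201, Rps27 at 1356 and 1346, and Rpl36a at 1385 and 1424 CPM. Near-identical copies and pseudogenes can take or lose reads of these genes: the annotation (GENCODE M21) names 300 Rpl or Rps pseudogenes, of which the deposited lists held 5. Order between members is uncertain for that reason, while ratios of 1 member between cell groups are less exposed to it.

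By cell group the summed share moved little. Stem and multipotent progenitor-like cells (HSC/MPP) had 26.4% in the knockout (299 cells) and 26.8% in the control (333 cells). Megakaryocyte-erythroid progenitor-like cells (MEP) had 26.3% (1479 cells) and 26.5% (963 cells), and erythroid cells 25.9% (2546 cells) and 26.0% (3092 cells). Clusters 2, 4 and 6, which reached no marker threshold and were left unnamed, had together 25.5% (1407 cells) and 25.9% (1227 cells). The granulocyte-monocyte progenitor-like cluster (GMP), with S100a9, S100a8 and Elane among its top genes, had 24.9% (430 cells) and 25.4% (678 cells). The neutrophil markers S100a9, S100a8 and Camp were among its top 10 genes. At resolution 0.6 a cluster led by S100a9 and S100a8 was named neutrophil and was counted as GMP. Cluster 9, led by Ighm, Ebf1, Tox and Ly86 and holding monocyte and lymphoid markers, had 25.5% (254 cells) and 25.9% (328 cells), and mast and basophil-like cells 25.1% (250 cells) and 26.1% (167 cells). The 82 knockout and 63 control megakaryocyte-like cells, at 24.8% and 25.1%, were too few to be compared further. HSC/MPP was the highest of these groups in both libraries and GMP the lowest of the compared ones, yet their median UMIs per cell also differed (21983 and 24569 in HSC/MPP, 29661.5 and 31112.5 in GMP, 36577 and 40383 in erythroid cells).

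**Figure D1:**
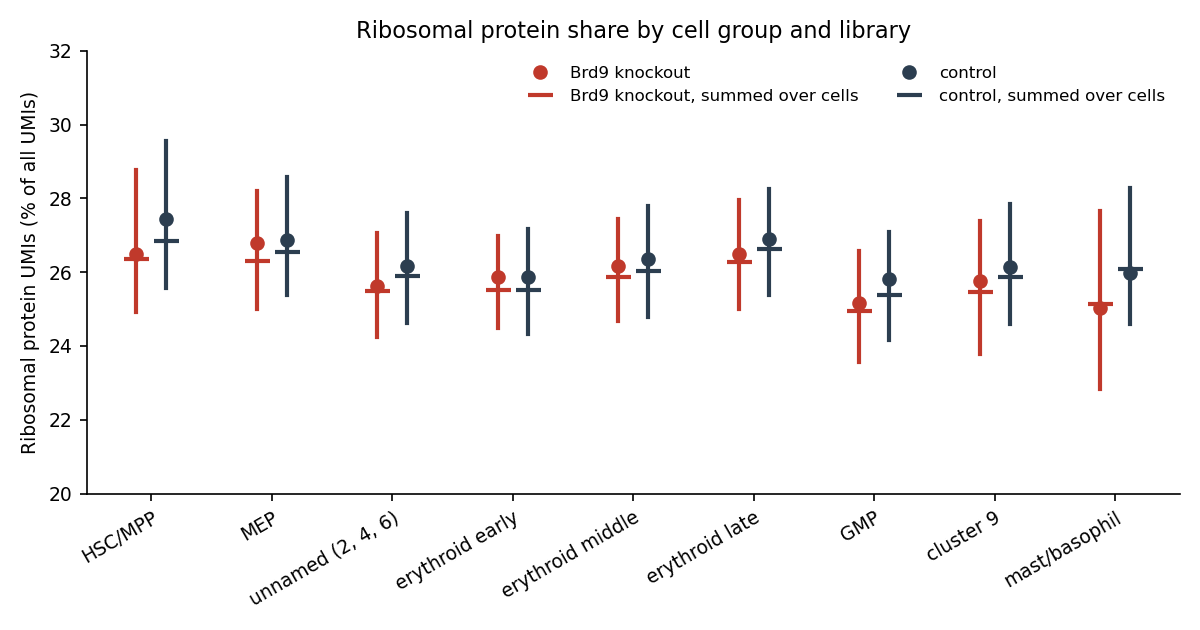
Ribosomal protein UMIs as a percent of all UMIs (y axis, starting at 20) by cell group (x axis), for the knockout (red) and control (dark) library; points are medians over cells, vertical lines run from the lower to the upper quartile, and short horizontal marks are the share of UMIs summed over cells. The summed shares lie between 24.9% and 26.8% and the quartile lines of the libraries overlap in every group.

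The members varied less between cell groups than other genes did. Over 9 groups (the 6 non-erythroid ones and the 3 erythroid stages described below), the range of a member's log2 level had a median of 0.20 in the knockout and 0.22 in the control. Among other genes at 50 CPM or more in every group the median range was 0.63 (2311 genes) and 0.65 (2248 genes). No member had a range above 1, against 491 and 478 of the other genes. The other genes were not matched to the members in level, and the part of counting noise in their ranges was not tested. Rpl30, Rps10, Rpl22, Rpl6, Rps20 and Rpl3 had the smallest ranges. Rpl30, of the large subunit, ran only from 2849 to 3044 CPM over the 9 groups of the knockout and from 2795 to 2954 CPM in the control.

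Set against the erythroid cells, however, 7 members were lower than the rest and 7 higher in the same 4 groups, HSC/MPP, GMP, cluster 9 and mast and basophil, in both libraries. Rplp0, Rplp1, Rps2, Rpl4, Rpl7a, Rpl31 and Rps27l each lay at least 0.2 log2 below the members' median in these groups, chosen after their values were seen, as were the 7 that lay at least 0.1 above it, among them Rpl28, Rpl39, Rps4x, Rps21, Rps24 and Rps28. A further 21 members, among them Rpl3, Rpl11 and Rps20, stayed within 0.1 of the median throughout. The share of all genes that met these limits in the 4 groups and both libraries was not counted. Whether these numbers are particular to the members was therefore not tested. The libraries gave nearly the same pattern, with a Pearson r over the 80 members of 0.98 in HSC/MPP, 0.97 in MEP, GMP and mast and basophil and 0.95 in cluster 9; these are descriptions, since the genes share cells and libraries.

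Rplp0, the base of the ribosomal stalk, stood in the early, middle and late erythroid stages at 6355, 6408 and 6530 CPM in the knockout and at 6270, 6418 and 6623 CPM in the control. In HSC/MPP it stood at 4506 and 4646 CPM, in GMP at 4516 and 4689, in cluster 9 at 4573 and 4741, and in mast and basophil at 4419 and 4682 (knockout, then control). MEP lay between, at 5464 and 5444 CPM, and the unnamed clusters, at 6232 and 6279 CPM, near the erythroid cells. The log2 ratio of HSC/MPP over erythroid was -0.52 in the knockout and -0.46 in the control, and HSC/MPP, GMP, cluster 9 and mast and basophil were each below all 3 erythroid stages in both libraries.

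Its stalk partner Rplp1 was also lower outside the erythroid cells (HSC/MPP over erythroid -0.41 and -0.42; GMP -0.44 and -0.48). Rps2 followed with -0.33 and -0.37 in HSC/MPP, and Rpl31 with -0.36 and -0.30. Rplp2, the other small stalk protein, did not share their size of difference, at -0.06 and -0.07 in HSC/MPP. Rps27l, a paralogue of Rps27 known as a p53 target, differed most in mast and basophil cells, at 619 and 620 CPM against 900 and 893 CPM over all cells, a log2 ratio over erythroid of -0.60 and -0.58.

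Rps4x, the X-linked S4 protein of the small subunit, showed the opposite order. It stood at 4168 CPM in knockout and 4130 CPM in control HSC/MPP, at 3546 and 3520 CPM in MEP, and at 2996 and 2966 CPM in the early erythroid stage. Rpl39, a short protein lining the exit tunnel, stood at 3071 and 2962 CPM in mast and basophil cells and at 2328 and 2216 CPM in the early erythroid stage. Rpl28 stood at 5207 and 5312 CPM in HSC/MPP and at 4133 and 4096 CPM in the early stage. For these 3 members the early and middle erythroid stages and the unnamed clusters were the lowest groups in both libraries. HSC/MPP was the highest, except for Rpl39 in the knockout, where mast and basophil cells were above the 2986 CPM of HSC/MPP.

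**Figure D2:**
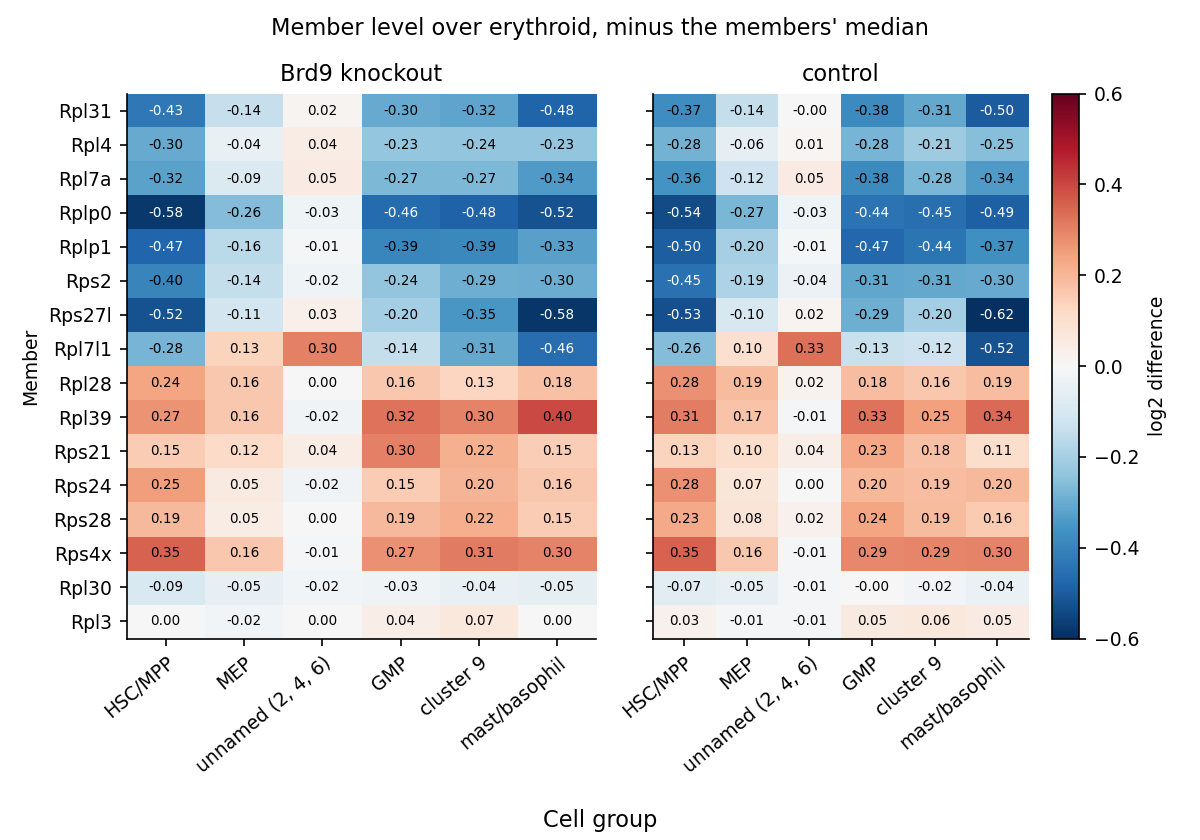
Difference in log2 level over the erythroid cells, minus the members' median difference (colour and printed value), for 16 members (y axis) in 6 cell groups (x axis) in each library. Rplp0 is at -0.58 and -0.54 in HSC/MPP, Rps4x at 0.35 in both, and the steady members Rpl30 and Rpl3 stay near 0.

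Counted at a log2 difference of 0.25 or more, 6 of the 80 members were higher in HSC/MPP than in erythroid cells in the knockout (31.1% of all genes tested) and 6 in the control (30.8%), and 6 were lower in each (37.9% and 38%). In GMP 2 were higher in each library (28.8% and 28.9%) and 7 lower (39.4% and 41.3%). In cluster 9, 2 were higher in each (31.1% and 29.6%) and 7 and 5 lower (38.8% and 37%). In mast and basophil cells 2 and 3 were higher (33.8% and 31.3%) and 10 and 7 lower (40.8% and 42.3%). MEP had none in either direction, where 23.4% and 23.6% of all genes were higher and 20% and 21.1% lower. In the unnamed clusters Rpl7l1 alone was higher in each library (17.3% and 16.2%), and none was lower (11.2% and 13.8%). All these shares lay far below the background, so at this threshold fewer of the members than of genes at large differed. The background counts genes at 50 CPM in either group, so it takes in genes high in only 1 group. Of the 80 members 78 lay above 1000 CPM, and the background was not matched to them in level.

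Erythroid cells were divided into 3 stages of equal size by their share of alpha-globin UMIs, cut at 1317 and 4344 CPM; 8.94% and 10.6% of the 5638 erythroid cells lay within 0.25 log2 of a cut. The summed ribosomal protein share was 25.5% in the early, 25.9% in the middle and 26.3% in the late stage of the knockout, and 25.5%, 26.0% and 26.6% in the control. The log2 ratio of late over early was 0.042 [0.041 to 0.044] in the knockout and 0.062 [0.061 to 0.063] in the control. With the cells ordered by 5 other erythroid genes instead, it was -0.011 and 0.0040, a change of sign in the knockout and a value nearer 0 in the control. Over UMIs without globin, mitochondrial and ribosomal protein genes it was 0.11 and 0.15, and without the clusters mostly from 1 library 0.14 and 0.077. Median UMIs per cell were lower in the late stage (34131 and 34488) than in the early one (38781.5 and 45419), and the early stage held 684 knockout and 1195 control cells. Female cells were 71.2% of the early and 49.0% of the late stage in the knockout, and 26.3% and 22.6% in the control; the part of sex and depth in the stage differences was not tested beyond the values in each sex (0.049 and 0.082 in female, 0.011 and 0.055 in male cells).

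No member reached a log2 difference of 0.5 between late and early in either direction, whereas 4.24% of all genes were higher and 8.05% lower in the knockout and 4.76% and 12.8% in the control. The members' median was 0.04 in the knockout and 0.05 in the control, against -0.09 and -0.13 for all genes tested. Rps26 was highest, with 2715 CPM early and 2972 CPM late in the knockout and 2633 and 2989 CPM in the control (0.13 and 0.18), followed by Rpsa (0.12 and 0.18), Rpl27a (0.11 and 0.13), Rpl9 (0.11 and 0.13), Rpl13 (0.10 and 0.13) and Rps3a1 (0.09 and 0.13). Ordered by the 5 other erythroid genes, Rps26 was at 0.10 and 0.14 and Rpsa at 0.041 and 0.072. Without the clusters mostly from 1 library, Rps26 was at 0.25 and 0.16 and Rpsa at 0.23 and 0.19. Besides Rpl7l1, the lowest included Rpl27 (-0.03 and -0.03), Rpl7a (-0.04 and -0.01), Rpl36 (-0.02 and -0.02) and Rps9 (-0.01 and -0.01).

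Rpl7l1 departed from every other member by stage. It stood at 206 CPM in the early, 183 in the middle and 151 CPM in the late stage of the knockout, and at 189, 166 and 137 CPM in the control. The late over early log2 ratio was -0.45 [-0.50 to -0.40] and -0.46 [-0.51 to -0.41]. It was the 1 member lower by 0.25 or more, where 26.9% of all genes in the knockout and 33.7% in the control were. Ordered by the 5 other genes, it was -0.47 and -0.41, and without the erythroid clusters that came mostly from 1 library -0.34 and -0.39.

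That decline resembled in size that of the ribosome assembly factors, a list of 35 nucleolar and pre-ribosome proteins outside the members. Their late over early median was -0.49 in the knockout and -0.60 in the control, and 16 and 22 of the 35 were lower by 0.5 or more (8.05% and 12.8% of all genes). Rrp9, of the small-subunit processome, had -0.91 and -1.09, and Npm1, the abundant nucleolar chaperone, -0.47 and -0.58. RNA polymerase I and its factors had a median of -0.40 and -0.53 over 17 genes, mitochondrial ribosomal proteins -0.20 and -0.23 over 78, and 18 translation genes whose mRNAs also start with a pyrimidine tract -0.08 and -0.09. Myc, whose protein drives ribosome production, had -1.08 and -1.36. Ribosomal protein mRNA was thus the 1 of these 5 lists whose summed level was higher in the late stage when cells were staged by alpha-globin.

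**Figure D3:**
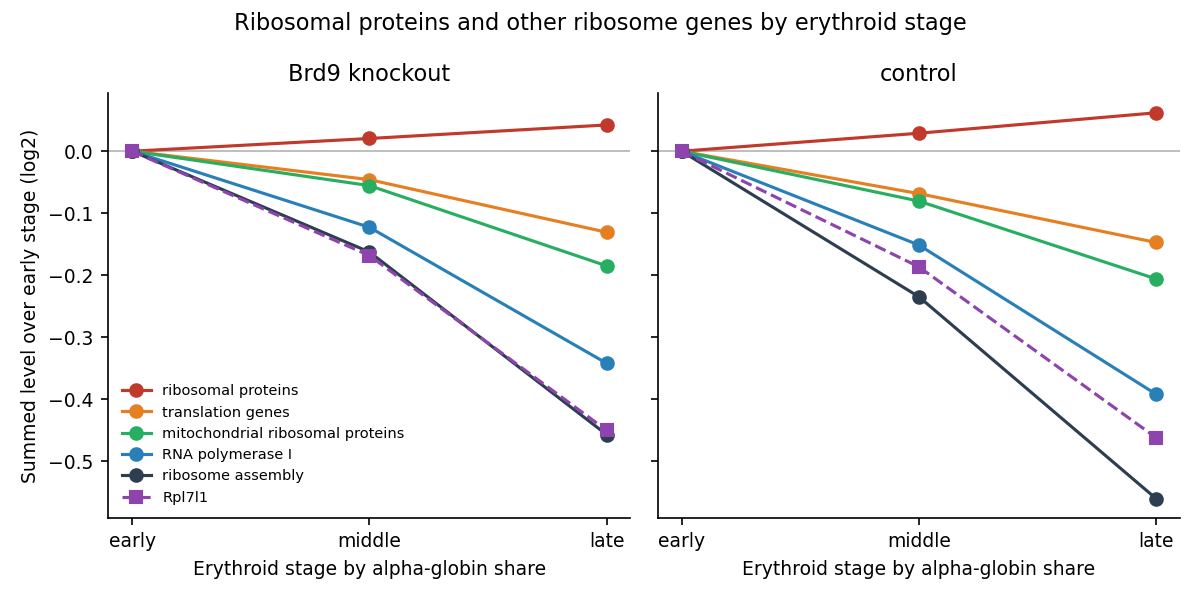
Summed level of each gene list, and of Rpl7l1 alone, relative to the early erythroid stage (y axis, log2), in the early, middle and late stages by alpha-globin share (x axis), for each library. Ribosomal proteins end at 0.04 and 0.06 while ribosome assembly ends at -0.46 and -0.56, and Rpl7l1 at -0.45 and -0.46.

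Between genotypes the members hardly differed. The 80 log2 ratios of knockout over control had a median of 0.00 and an SD of 0.04 over members, against 0.03 and 0.16 over all 6228 genes tested, and 40 lay above and 40 below 0, where 65.3% of all genes tested lay above. Scaled by the median ratio of all genes in place of total UMIs, an alternative added after seeing the data, 11 members lay above and 69 below 0 (50% of all genes above), so the even split depends on the scaling. None reached 0.25 in either direction, where 2.2% of all genes were higher and 2.22% lower, and 69 lay within 0.05. At such small shares, none among 80 members is near the background. The 6228 genes were not matched to the members in level, either for these counts or for the SD. At 0.1, a smaller threshold added after seeing the data, 3 members were lower (8.77% of all genes) and none higher (17.1%).

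Rps23, a protein of the decoding centre of the small subunit, stood furthest from the rest. It had 921740 UMIs in the knockout, 3626 CPM, and 1154363 in the control, 4206 CPM. The log2 ratio was -0.21 [-0.22 to -0.21], a level 13.8% lower in the knockout. Single knockout cells had quartiles of 3328, 3637 and 3981 CPM and control cells 3891, 4238 and 4594 CPM, so the upper quartile of the knockout lay below the control median. Its ratio was -0.22 in female cells and -0.21 in male cells. It ran from -0.17 in cluster 9 and HSC/MPP to -0.26 in the late erythroid stage, and was below 0 in all 18 clusters with at least 50 cells in each library, the lowest of the 80 members in 16 of them. The late erythroid stage was the 1 group where it passed 0.25, with 3675 against 4413 CPM (2.34% of all genes tested there were lower by that much). Without the clusters that came mostly from 1 library it was -0.22. The annotation shows no gene overlapping Rps23 (chr13:90922958-90924950, + strand, mm10).

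Rps19, the gene most often mutated in Diamond-Blackfan anaemia, had 3267 CPM in knockout and 3597 CPM in control cells, a log2 ratio of -0.14 [-0.14 to -0.13]. It was below 0 in all 18 clusters, from -0.23 in mast and basophil cells, where it was the lowest member, to -0.06. Rpl35, of the large subunit near the exit tunnel, stood at 1026 and 1116 CPM (-0.12 [-0.13 to -0.11]), and Rpl12, at the base of the stalk, at 3142 and 3342 CPM (-0.09 [-0.09 to -0.09]); both too were below 0 in all 18 clusters. Rpl35 overlaps Wdr38 and Arpc5l, and Rpl12 overlaps Lrsam1, on the opposite strand. Rpl10 had -0.07 and Rps16 -0.07, each below 0 in 17 of the 18. Clusters are not replicates, since each holds cells of the same 2 libraries, and with 1 library per genotype a difference between libraries and one between genotypes cannot be told apart. Rps23, these members and those at the upper end were picked by their whole-library ratio, to which the same clusters contribute. A shared sign over the clusters was thus in part built in. The share of all genes with 1 sign in as many clusters was not counted.

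At the upper end Rpl23a had 2013 CPM in knockout and 1894 CPM in control cells (0.09 [0.08 to 0.09]), higher in 17 of 18 clusters. Rpl7l1 followed with 188 and 178 CPM (0.08 [0.06 to 0.10]), higher in 15 clusters, and then Rpl30 with 0.05 and Rpl27 and Rpl39 with 0.04. Each of these differences was smaller than that of Rps23 by more than 0.1.

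**Figure D4:**
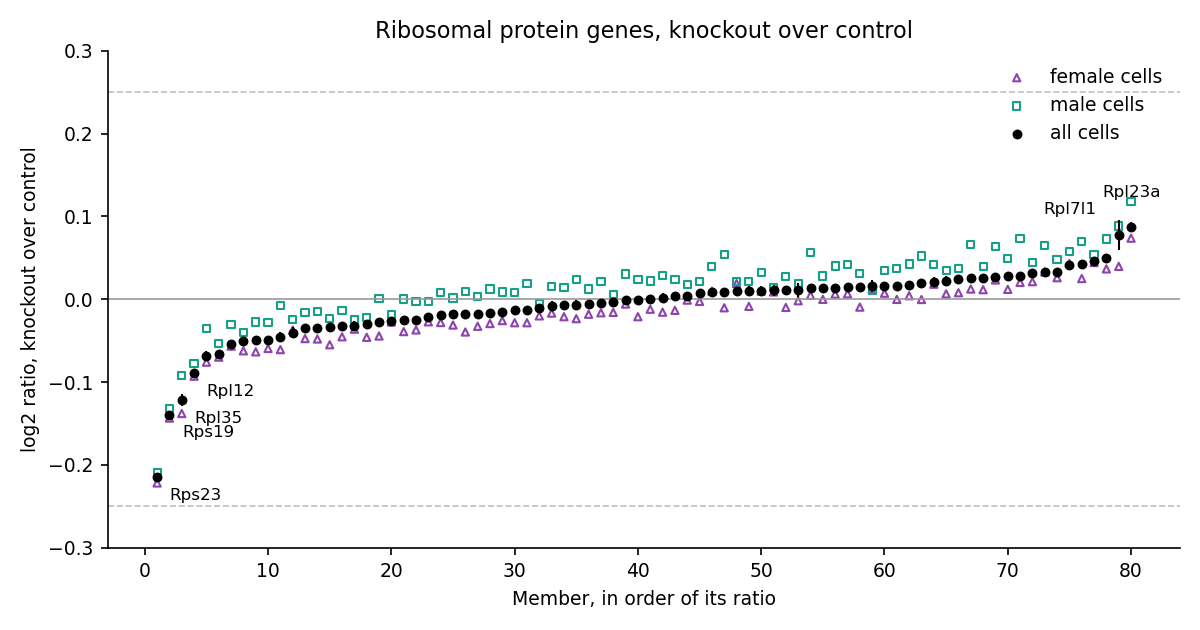
Log2 ratio of knockout over control (y axis) for the 80 members that reached 20 CPM, in order of the ratio (x axis); black points are all cells with 95% counting intervals, triangles female cells, squares male cells, and dashed lines mark 0.25 in each direction. Rps23 at -0.21, Rps19 at -0.14 and Rpl35 at -0.12 leave a series that otherwise stays between -0.09 and 0.09.

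Within cell groups the summed log2 ratio was -0.0016 in erythroid cells, -0.013 in MEP, -0.024 in the unnamed clusters and in cluster 9, -0.025 in GMP, -0.026 in HSC/MPP and -0.054 in mast and basophil cells. All 7 values were below 0, and all but that of erythroid cells were larger in size than the whole-library value. By erythroid stage the summed log2 ratio was -0.00041 [-0.0017 to 0.00088] in the early, -0.0089 in the middle and -0.020 in the late stage. The late stage held 1039 of 2546 knockout and 841 of 3092 control erythroid cells. The part of this in the pooled erythroid value was not tested. In mast and basophil cells 71 of the 80 members were lower in the knockout, with a median of -0.05 against 0.03 over all genes tested there. The share of all genes below 0 in that group was not counted. The knockout cells of that group also had fewer UMIs (median 23563.5 against 27852). No member passed 0.25 in either direction in any of these groups apart from Rps23 in the late erythroid stage. Among all genes, 1.3% were higher and 1.97% lower in erythroid cells, 1.32% and 2.3% in the early stage, 1.83% and 2.74% in the middle and 2.79% and 2.34% in the late stage. The shares were 3.42% higher and 2.75% lower in HSC/MPP, 1.3% and 1.93% in MEP, 4.81% and 2.19% in the unnamed clusters and 4.4% and 3.32% in GMP. They were 8.79% and 4.66% in cluster 9 and 11.9% and 6.27% in mast and basophil cells. Rpl23a lay at 1785.84 and 1800.65 CPM in cluster 9, its 1 group below 0.

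The sexes differed in direction for the sum. Knockout over control was -0.021 [-0.022 to -0.021] in female cells and 0.010 [0.0096 to 0.011] in male cells, and 31 of the 80 members had opposite signs in the sexes. Within the knockout library, female cells were lower than male cells for 78 of 80 members with a median of -0.03, whereas in the control 36 of 80 were lower with a median of 0.00. The share of all genes was not taken for these counts by sex, so whether they are particular to the members was not tested. The X-linked members Rpl10, Rpl36a, Rpl39 and Rps4x had female over male log2 ratios of -0.06, -0.03, -0.02 and -0.08 in the knockout and of -0.02, -0.02, -0.01 and -0.03 in the control, so none was higher in cells with an additional X chromosome.

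Of the 22 Diamond-Blackfan genes among the members, 9 were higher and 13 lower in the knockout (65.3% of all genes tested were higher). Their median was -0.00 and their range from -0.14 (Rps19) to 0.04 (Rpl27). Under median of ratios scaling 2 were higher and 20 lower, with a median of -0.03 (50% of all genes were higher). None of them passed 0.25. Rack1 and Fau, which encode further ribosomal components outside the symbol rule, were both lower (-0.05 and -0.04). Of the ribosome assembly factors, 32 of 35 were higher, or 91.4% against 65.3% of all genes, with a median of 0.06. Under median of ratios scaling 28 were higher, or 80% against 50% of all genes. Scaled by total UMIs, the highest was Ltv1, a small-subunit assembly factor, at 0.21, and the lowest the helicase Ddx21 at -0.07. Mitochondrial ribosomal proteins were higher in 59 of 78, or 75.6% against 65.3% of all genes. Their median was 0.04, with Mrps16 at 0.19 and Mrpl52 at -0.25 as the ends. Under median of ratios scaling 46 of 78 were higher. Of the 6 genes of the p53 list, p53 included, that reached the minimum level, Trp53 had -0.10 and Bax 0.04, and none passed 0.25 in either direction. All genes tested had a median of 0.03. The mitochondrial ribosomal proteins lay near it at 0.04, and the ribosome assembly factors stood further above it at 0.06.

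Rpl39l, the testis-enriched paralogue of Rpl39, departed in another way: it was present in few cells, but at many UMIs in each. The knockout library had 2102 Rpl39l UMIs, 8.27 CPM, and the control 1357, 4.94 CPM (log2 ratio 0.74 [0.64 to 0.84]). No Rpl39l UMI was found in 6479 of 6747 knockout and 6676 of 6851 control cells. At least 3 were found in 179 knockout cells (2.65% [2.28 to 3.06]) and 119 control cells (1.74% [1.44 to 2.07]), with a median of 10 and 9 UMIs in those cells and up to 33 and 38. These few cells held 94.7% and 94.8% of all Rpl39l UMIs, while 89 and 56 cells had 1 or 2. Most cells with any Rpl39l UMI therefore held several.

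Among female cells the share with at least 3 was 3.07% [2.55 to 3.65] in the knockout and 3.05% [2.26 to 4.02] in the control. In male cells it was 1.94% [1.45 to 2.55] and 1.28% [0.99 to 1.62]. The intervals of the libraries overlapped in each sex, and the difference between the sexes was not tested. The whole-library ratio of 0.74 was 0.12 within female and 0.70 within male cells, and the libraries differed in their share of female cells as given above. Rpl39l cells were found in each compared group of the knockout, from 2 of 299 HSC/MPP cells (0.67%) to 48 of 1407 cells of the unnamed clusters (3.41%), and erythroid cells had 69 of 2546 (2.71%). In the control, erythroid cells had 66 of 3092 (2.13%), and none was found among 333 HSC/MPP and 167 mast and basophil cells, for which the exact intervals reach up to 1.1% and 2.18%. In Rpl39l cells, Rpl39 itself stood at 2422 and 2347 CPM, against 2502 and 2430 CPM in the other cells. Median UMIs per cell were 40529 and 40885 in Rpl39l cells and 35909 and 38469 in the others.

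**Figure D5:**
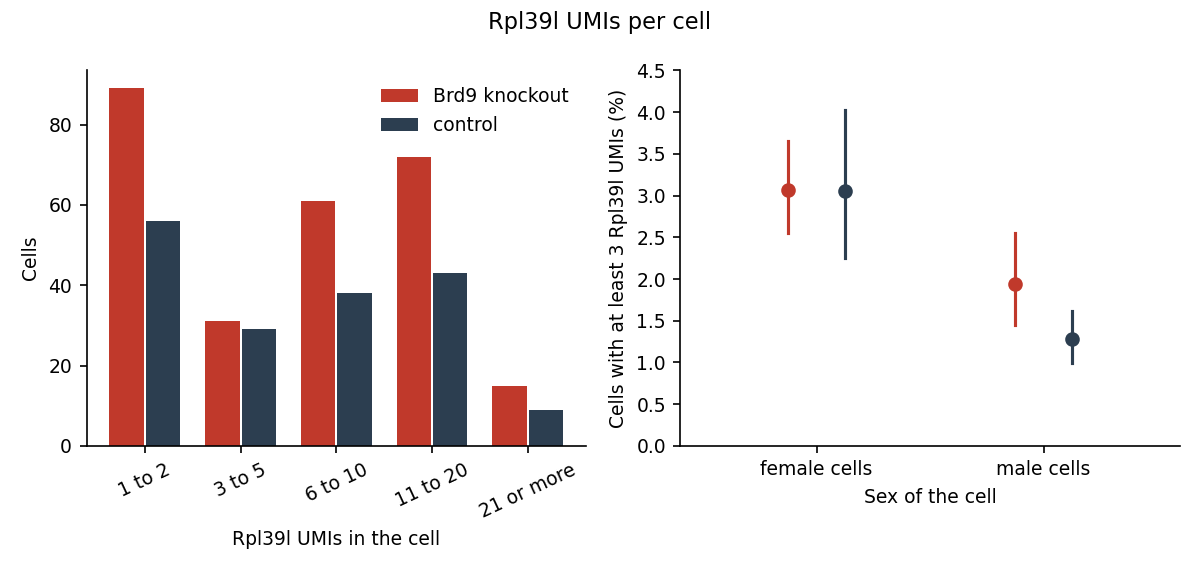
Left, number of cells (y axis) by Rpl39l UMIs in the cell (x axis), leaving out cells with none, for the knockout (red) and control (dark). Right, percent of cells with at least 3 Rpl39l UMIs (y axis) in female and male cells, with exact 95% intervals; the female values are 3.07% and 3.05%, and the male values 1.94% and 1.28%.

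Of the other paralogues, Rps27l gave 39.9% of the UMIs of the Rps27 and Rps27l pair in both, and from 30.3% and 29.7% in mast and basophil cells to 41.4% and 41.1% in the unnamed clusters. Rpl22l1, the paralogue of Rpl22, gave 39.3% and 39.2% of its pair, and Rpl7l1 6.24% [6.18 to 6.29] and 5.98% [5.93 to 6.04] of its pair with Rpl7. Rpl3l, known from striated muscle, had 44 and 26 UMIs in all, and Rpl10l, known from testis, 1 and 0, which were too few to compare. Rpl36al, outside the symbol rule, stood at 1380 and 1286 CPM (0.10 [0.09 to 0.11]) beside Rpl36a at 1385 and 1424 CPM (-0.04), so that it gave 49.9% of their joint UMIs in knockout and 47.5% in control cells. Its share was higher in the knockout in each of the 7 compared groups, with the values closest in cluster 9 (43.1% against 41.9%) and furthest apart in GMP (49.6% against 45.3%).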

How the data were processed

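The labels' protocols give droplet libraries from the 10x Genomics 3′ kit v3.1. Per the submitters' processing notes, Cell Ranger 7.2.0 was run on mm10. The authors deposited its raw UMI counts, not normalized. The treatment of intronic reads was not stated.

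Barcodes were kept from 1000 detected genes and 2000 UMIs upwards if mitochondrial UMIs did not exceed 10% (7001 knockout, 7100 control). Scrublet in scanpy 1.11.5, with an expected rate of 6%, marked 244 and 240 doublets, which were removed. Cells with at least 0.1% of UMIs from non-blood markers were removed, a step added after seeing the data. Clustering used 3000 variable genes, 30 components, 15 neighbours and Leiden resolution 1, without ribosomal protein, cell-cycle, sex-linked and mitochondrial genes and Brd9. A cluster took the name with at least 2 markers among its top 30 genes, or else the highest relative marker level above 0.4, a limit set after seeing the data. Female cells had 3 or more Xist UMIs with at most 1 from 4 Y-linked genes, and male cells at most 1 Xist UMI, whatever their Y-linked UMIs. UMIs were summed per group and library, and log2 ratios have exact conditional intervals; genes needed 20 CPM in either side, or 50 CPM between cell groups. Recovery of known ratios was tested on simulated data.

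Members named in the text were the 6 highest and 6 lowest by level, genotype and stage, the 3 at each end per cell group, the paralogue pairs, X-linked members and those under 20 CPM, with 2 at each end of other lists; further names were chosen after seeing values, and some members that the rule names are not reported here. Members and lists were chosen with earlier results of these data known. Precision is set by UMIs per gene and by 1 library per genotype.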

Additional observations from a re-analysis of the deposited data

Results flagged for a closer look

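The summed ribosomal protein level moved in opposite directions in the sexes. Knockout over control was -0.021 (log2) in female cells and 0.010 in male cells, with 1 library per genotype behind each value. The difference between the sexes was not tested.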

How the results depend on the processing

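No paired analysis was possible because there was 1 library per genotype and no replicate numbers. The counts of members past 0.25 between genotypes and past 0.5 by stage stayed at 0 under every alternative run. Over all results and alternatives, 106 values stayed within their counting interval or count limit, 68 moved further and 4 changed sign. The cause was not tested. Many of the 106 were counts of members that stayed at 0. The count limit was wide: all genes above 0 went from 4065 to 3114 under median of ratios scaling and still fell among the 106. The tally is therefore no measure of how stable the results are. Under median of ratios scaling, 11 in place of 40 members lay above 0 between genotypes, with 2 in place of 9 Diamond-Blackfan genes, 8 in place of 13 translation genes and 5 in place of 8 MYC and mTOR genes. In the order knockout, then control, the share of UMIs was 36.1% and 36.7% over UMIs without globin, mitochondrial and ribosomal protein genes, 25.9% and 26.1% without globin, 25.8% and 26.0% both with doublets kept and under a stricter cell filter, 25.7% and 25.9% over all barcodes, 26.0% and 26.2% with cells weighted equally, 25.6% and 26.0% in female and 26.2% and 26.0% in male cells. The genotype log2 ratio of the sum was -0.023 over the reduced denominator, -0.038 under median of ratios scaling, -0.0094 with doublets, -0.011 under the stricter filter, -0.0087 over all barcodes, -0.013 with equal weights, -0.021 in female cells, 0.010 in male cells, -0.012 with knockout classes reweighted and, added after seeing the data, -0.019 without clusters mostly from 1 library.

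By stage, late over early was 0.11 and 0.15 over the reduced denominator, 0.067 and 0.093 without globin, 0.047 in the knockout with equal weights, 0.065 in the control under the stricter filter, 0.049 and 0.082 in female and 0.011 and 0.055 in male cells, 0.038 in the knockout with cuts within libraries, -0.011 and 0.0040 by 5 other erythroid genes, and 0.14 and 0.077 without clusters mostly from 1 library. The lowest group over erythroid was at -0.11 and -0.079 over the reduced denominator, -0.067 and -0.042 without globin, -0.064 and -0.047 with equal weights, and -0.038 in the control at resolution 0.6. The highest group was at 0.012 and 0.041, 0.013 and 0.038, 0.030 and 0.064, and 0.067 and 0.067 at resolution 0.6. Within groups, the lowest genotype ratio was -0.077 over the reduced denominator, -0.082 under median of ratios scaling, -0.067 with equal weights, -0.029 in female and -0.024 in male cells. The highest was -0.0080, -0.030, -0.0057, -0.016 and, reversed, 0.023 in the same order, -0.00032 without globin, and 0.0038 at resolution 0.6, also reversed. Low UMI counts limit the values of Rpl39l, Rpl3l and Rpl10l. The sums of the members rest on many UMIs, but their share went down with depth, and the part of depth in the differences was not tested.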
